A study of Mus musculus with 8 samples.

Results

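The mitochondrial fatty acid beta-oxidation enzymes are described here by 10 genes, chosen by their function and taken from the mouse liver expression table by symbol. All 10 were found among the 55416 gene identifiers. They encode the carnitine shuttle (*Cpt1a*, *Slc25a20*, *Cpt2*), the acyl-CoA dehydrogenases (*Acadvl*, *Acadl*, *Acadm*, *Acads*), and the enzymes of the later steps (*Hadha*, *Hadhb*, *Hadh*). RNA sequencing was performed on 8 liver samples, 4 labelled HKO and Alb-cre+, in which loxP sites and Cre were used to remove *Smpd3* from hepatocytes, and 4 labelled FLOX and Alb-cre-. Every animal was fed the HFMCD diet for 9 weeks to induce steatohepatitis, so each value below belongs to livers under that diet. Since FLOX livers lacked Cre, an effect of Cre itself and an effect of losing *Smpd3* cannot be told apart. The labels used here state no strain, sex or age. They also do not say that each sample is a separate animal, so the p-values reflect sample-to-sample spread that may be technical.

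Long-chain fatty acids enter the mitochondrial matrix as carnitine esters. CPT1 makes the ester on the outer membrane, the translocase SLC25A20 carries it across the inner membrane, and CPT2 returns it to coenzyme A. Malonyl-CoA, the first product of fatty acid synthesis, inhibits CPT1 and makes this step a control point of the pathway. Inside the matrix each turn of the spiral shortens the chain through dehydrogenation, hydration, a further dehydrogenation and thiolysis. In liver the product, acetyl-CoA, feeds ketone body synthesis, and many of the genes are targets of the fatty acid receptor PPAR alpha during fasting.

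Promoter windows are shown for *Cpt1a*, whose level differed most between the genotypes, and for *Hadha* and *Hadhb*, which encode the subunits of the same protein and lie head to head. Each window runs from 250 bases before to 50 bases after the gene's RefSeq start in GRCm38.p6, and all 10 genes had a window. Capitals mark matches, on either strand, to the nuclear receptor hexamer AGGTCA, the GC box GGGCGG and the CCAAT box.
Cpt1a (chr19:3323051-3323350, plus strand): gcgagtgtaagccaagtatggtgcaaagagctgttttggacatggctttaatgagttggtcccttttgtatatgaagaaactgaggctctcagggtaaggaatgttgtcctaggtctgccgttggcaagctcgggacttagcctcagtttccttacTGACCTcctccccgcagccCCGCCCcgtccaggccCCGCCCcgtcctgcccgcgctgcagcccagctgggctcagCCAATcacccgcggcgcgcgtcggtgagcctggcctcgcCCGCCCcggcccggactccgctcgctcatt
Hadha (chr5:30154931-30155230, minus strand): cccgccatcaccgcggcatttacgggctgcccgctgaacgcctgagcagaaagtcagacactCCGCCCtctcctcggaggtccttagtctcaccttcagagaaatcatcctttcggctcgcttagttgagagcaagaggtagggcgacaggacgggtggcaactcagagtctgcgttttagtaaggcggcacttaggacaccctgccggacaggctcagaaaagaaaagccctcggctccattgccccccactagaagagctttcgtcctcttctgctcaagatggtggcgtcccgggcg
Hadhb (chr5:30155003-30155302, plus strand): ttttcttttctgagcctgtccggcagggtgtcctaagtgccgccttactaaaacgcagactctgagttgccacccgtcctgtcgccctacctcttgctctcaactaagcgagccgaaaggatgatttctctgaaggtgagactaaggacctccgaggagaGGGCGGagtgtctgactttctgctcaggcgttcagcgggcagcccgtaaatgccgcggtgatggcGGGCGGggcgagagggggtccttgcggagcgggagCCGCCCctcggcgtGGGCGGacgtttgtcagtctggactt
The starts of *Hadha* and *Hadhb* lie 273 bases apart on opposite strands, and the windows share 228 bases, each being the reverse complement of the other there. The *Cpt1a* window holds the hexamer on the other strand 94 bases before the start, 3 GC boxes and a CCAAT box 19 bases before the start. The hexamer was found in 3 of the 10 windows (*Cpt1a*, *Acadm* and *Acadvl*), against 16.3% of all 32851 promoter windows of the same length. A GC box was found in 8 of 10, against 35.7% of all windows, and CCAAT in 2 of 10, against 37.4%. The GC box of *Hadha* and the *Hadhb* box 90 bases before its start are the same bases in the shared stretch. The 10 windows held 50.7% (*Acadvl*) to 70.3% (*Acadl*) GC, against a median of 52.7% over all windows, and the part of GC content in the GC box count was not tested. Searched in the same way, a direct repeat of the hexamer with a single base between, the PPAR-type motif that contains AGGTCA, matched 0 of the 10 windows and 0.0396% of all windows. The E-box CACGTG matched 0 of 10 and 7.15%, and TATAAA 0 of 10 and 13.6%.

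Levels are given as TPM, a transcript abundance scaled by gene length and by the total of the library, and depth is unknown because TPM keeps no record of it. The libraries summed to between 994563 and 995449 TPM. *Smpd3*, which encodes neutral sphingomyelinase 2, had 1.17, 3.03, 1.27 and 2.06 TPM in the HKO libraries, against 8.69, 10.72, 12.54 and 6.38 TPM in the FLOX libraries, and fell by 1.89 ± 0.24 (SE) on the log2(TPM + 1) scale (adjusted p = 0.0300 in limma). For *Smpd3*, exact permutation over the 70 ways to assign the libraries (2-sided) returned p = 0.0286, which is the lowest value possible. All 12 hepatocyte markers were measured, with summed levels of 66354 to 74265 TPM in HKO and 73373 to 87040 TPM in FLOX. By log2 difference 10 were lower and 2 higher in HKO, with 0 past the threshold in limma. All tested genes numbered 4499 lower and 8211 higher. Of other markers, 8 of 10 endothelial ones were lower, and 8 of 10 stellate cell ones higher. Cholangiocyte and lymphoid markers were higher in 5 of 5 tested each, Kupffer cell markers in 5 of 9 and neutrophil markers in 1 of 4. The part of cell composition in the values below was not tested. FLOX 4 stood apart in markers of other liver cells. Its summed endothelial markers were 89.8 TPM, against 124 to 154 TPM in HKO and 176 to 199 TPM in the other FLOX libraries, with 0 of the 10 markers past the threshold in limma. Its summed stellate cell markers were 283.7 TPM, against 478.7 to 692 TPM in HKO and 581 to 599.6 TPM in the other FLOX libraries, again with 0 of 10 past it. No marker of either list was at 0 in all libraries. FLOX 1 had the most skeletal muscle transcripts, with 12.76 TPM of *Acta1*, 4.10 TPM of *Ckm* and 1.22 TPM of *Myh4*. Its 6 other-tissue markers summed to 18.1 TPM, against 1.16 to 1.67 TPM in HKO and 1.01 to 1.94 TPM in the other FLOX libraries. In that list *Plin1* and *Umod* were listed at 0 in all 8 libraries.

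No gene of mitochondrial beta-oxidation passed the test between the *Smpd3* knockout livers and their controls. The largest difference was at the entry step. *Cpt1a* stood at 118.8 ± 9.72 TPM in HKO and 166.9 ± 26.3 TPM in FLOX (SD, n = 4 each), or 71.2% of the FLOX mean, with no overlap between the groups. The other 9 genes had HKO means between 90.2% and 102.7% of the FLOX means, and their groups overlapped. In limma, fitted over 12710 genes that reached 1 TPM in at least 4 libraries, 0 of the 10 genes passed a Benjamini-Hochberg adjusted p of 0.05, beside 0.102% of all tested genes (0.0551% lower and 0.0472% higher). At an unadjusted p under 0.05, 1 of the 10 passed, *Cpt1a*, beside 8.02% of all tested genes in either direction, 2.45% lower and 5.57% higher.

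**Figure D1:**
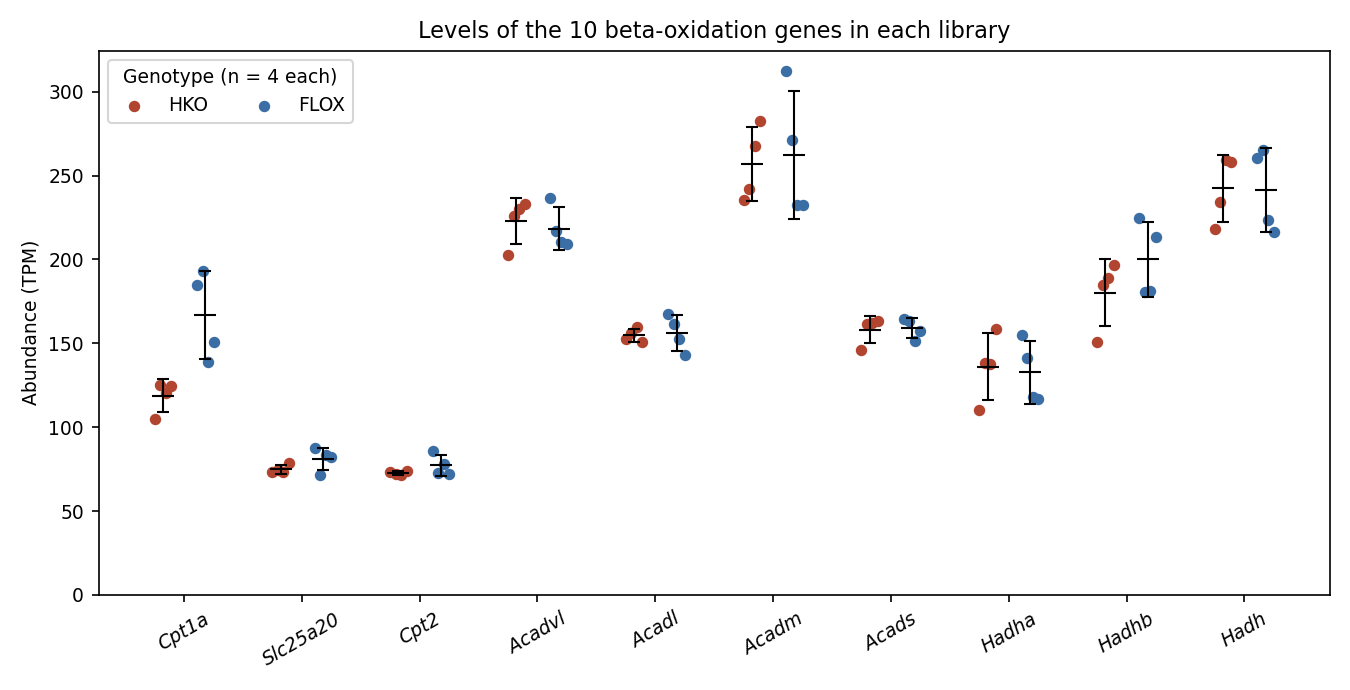
TPM of each of the 10 genes in the 4 HKO libraries (red, left) and the 4 FLOX libraries (blue, right), with the mean and SD in black. *Cpt1a* is the gene whose groups do not overlap, with HKO between 104.6 and 125.4 TPM and FLOX between 138.6 and 193.3 TPM.

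All 10 genes were abundant, between the 88.8th percentile (*Cpt2*) and the 96.2nd percentile (*Acadm*) of the mean TPM of tested genes. The order below rests on the transcript lengths used for TPM, which are not given in these sources and for which a human build is named. Over the 8 libraries *Acadm* averaged 259.4 TPM, *Hadh* 241.8, *Acadvl* 220.6, *Hadhb* 190.1, *Acads* 158.6, *Acadl* 155.3, *Cpt1a* 142.8, *Hadha* 134.4, *Slc25a20* 78.0 and *Cpt2* 74.9 TPM. The genes of the inner-membrane steps of the shuttle, *Slc25a20* and *Cpt2*, thus had the lowest levels of the 10. *Acadm* exceeded *Hadh*, and *Hadh* exceeded *Acadvl*, in 8 of 8 libraries, although the ranges of each pair overlapped. *Acads* and *Acadl* did not keep the same order in every library, *Acads* being the higher in 5 of 8. Their mean difference of 3.34 TPM was smaller than its SD of 7.18 TPM, and whether the means differ was not tested. The same held for *Slc25a20* against *Cpt2* (6 of 8). The place of *Cpt1a* depended on the genotype. By group means it was 8th of the 10 in HKO, below *Hadha*, and 5th in FLOX, above *Acads*, *Acadl* and *Hadha*. *Cpt1a* was above *Hadha* in 0 of 4 HKO libraries and in 4 of 4 FLOX libraries. Against *Acadl*, the neighbour in the pooled order, *Cpt1a* was the lower in 5 of 8 libraries, and the mean difference of 12.4 TPM was smaller than its SD of 28.7 TPM. The gap between *Hadha* and *Slc25a20* was the only place in the order where the ranges of neighbours did not overlap.

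The carnitine shuttle was examined first. *Cpt1a* (ENSMUSG00000024900) encodes the liver form of carnitine palmitoyltransferase 1, which commits long-chain fatty acids to mitochondrial oxidation. Its levels were 104.6, 125.4, 120.6 and 124.5 TPM in HKO 1 to 4, against 184.8, 193.3, 138.6 and 150.9 TPM in FLOX 1 to 4. HKO 1 was the lowest library and FLOX 2 the highest, and every HKO value lay below every FLOX value, as did those of 1.46% of tested genes. A further 3.29% had every HKO value above every FLOX value, 4.74% in all. The log2 difference was -0.48 ± 0.12 (SE), with a 95% interval of -0.74 to -0.22 and an adjusted p of 0.212 in limma, so *Cpt1a* did not pass. The log2 difference was -0.42 without FLOX 1 and -0.52 without FLOX 4, and over all alternatives the adjusted p of *Cpt1a* ranged from 0.103 to 0.469 in limma.

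Values of circadian clock genes are given beside those of *Cpt1a*. In the clock list 1 of 16 tested genes passed, higher in HKO, beside 0.102% of all tested genes. At an unadjusted p under 0.05 there were 6 higher and 5 lower, beside 5.57% and 2.45% of all tested genes. *Arntl*, the clock activator also called *Bmal1*, had 11.95, 12.47, 13.10 and 19.55 TPM in HKO and 4.12, 5.27, 6.52 and 3.18 TPM in FLOX, and it was the gene that passed (adjusted p = 0.0490 in limma, 0.0310 to 0.230 over the alternatives). *Dbp*, a clock output gene, had 2.67, 3.06, 3.27 and 1.68 TPM in HKO and 18.64, 35.43, 5.43 and 31.43 TPM in FLOX. It did not pass (adjusted p = 0.108 in limma), but did without FLOX 3 (adjusted p = 0.00439, range over the alternatives up to 0.363). Among the FLOX libraries, FLOX 2 had both the most *Dbp* and the most *Cpt1a*, and FLOX 3 had the least of both, but FLOX 4 had more *Dbp* and less *Cpt1a* than FLOX 1. Among the HKO libraries, HKO 4 had the least *Dbp* and HKO 1 the least *Cpt1a*. The labels give no time of collection, and the part of the clock in the *Cpt1a* values was not tested.

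*Slc25a20* (ENSMUSG00000032602), the carnitine-acylcarnitine translocase, had 72.98, 74.24, 73.10 and 78.88 TPM in HKO, against 87.34, 71.66, 83.12 and 82.45 TPM in FLOX. 3 of the FLOX values were above every HKO value and FLOX 2 was below them all. *Cpt2* (ENSMUSG00000028607), the inner-membrane transferase, had 73.33, 72.26, 71.20 and 73.88 TPM in HKO, against 85.90, 72.65, 77.90 and 72.10 TPM in FLOX. The HKO libraries lay close together, with a coefficient of variation of 1.63% against 8.30% in FLOX. The log2 differences were -0.11 (95% interval -0.30 to 0.07) for *Slc25a20* and -0.08 (-0.26 to 0.10) for *Cpt2*, and neither passed (adjusted p = 0.837 and 0.898 in limma). With a library left out the differences ranged from -0.17 (without FLOX 2) to -0.077 (without FLOX 1) for *Slc25a20*, and from -0.11 to -0.029 (without FLOX 1) for *Cpt2*. They were -0.18 and -0.14 under median-of-ratios scaling.

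The ratio of *Cpt1a* to *Cpt2*, the transferases on the outer and inner membranes, does not change when a whole library is multiplied by a common factor. Quantile normalization is not of that kind. It was 1.43, 1.74, 1.69 and 1.69 in HKO, against 2.15, 2.66, 1.78 and 2.09 in FLOX. The groups did not overlap, though FLOX 3 lay close to the HKO libraries. This ratio was not among the measures planned. Since *Cpt1a* is its numerator, and that of the share below, neither is a separate result from the *Cpt1a* levels. *Cpt1a* made up 7.34 ± 0.29% of the summed TPM of the 10 genes in HKO and 9.82 ± 0.97% in FLOX (SD, n = 4 each). Its share was 7.13% to 7.77% in HKO and 8.83% to 11.1% in FLOX. The muscle and brain forms of the enzyme, named after their values were seen, were scarce, with *Cpt1b* at 2.11 ± 0.76 TPM in HKO and 1.60 ± 0.61 TPM in FLOX (SD, n = 4 each). *Cpt1c* stayed at or below 0.66 TPM in HKO and 0.72 TPM in FLOX.

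**Figure D2:**
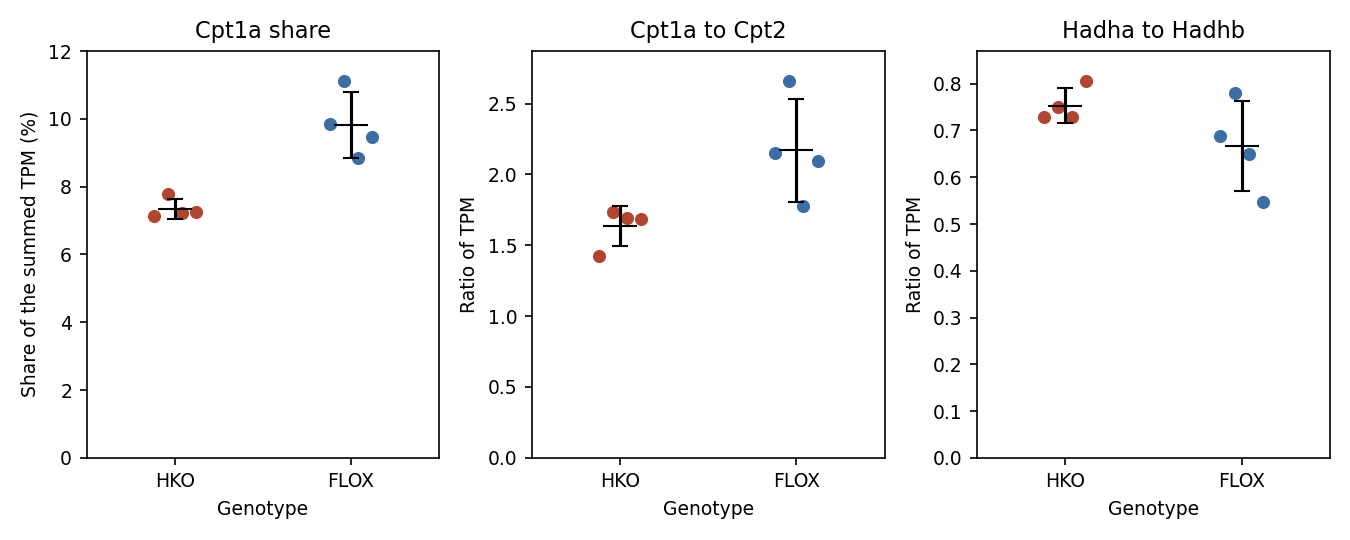
Share of *Cpt1a* in the summed TPM of the 10 genes (left), the *Cpt1a* to *Cpt2* ratio (middle) and the *Hadha* to *Hadhb* ratio (right) in each HKO and FLOX library, with the mean and SD in black. The HKO and FLOX points are apart in the left and middle panels and mixed in the right one, where HKO runs from 0.729 to 0.806 and FLOX from 0.547 to 0.781.

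The acyl-CoA dehydrogenases, which take the first oxidation step and differ in the chain length they prefer, had nearly equal means in both genotypes. *Acadvl* (ENSMUSG00000018574), the very-long-chain enzyme, had 202.5, 225.6, 230.1 and 233.0 TPM in HKO, against 236.7, 217.1, 210.4 and 209.2 TPM in FLOX. HKO 1 was the lowest library and FLOX 1 the highest, with the others interleaved. *Acadl* (ENSMUSG00000026003), the long-chain enzyme, had 152.4, 156.2, 159.4 and 150.7 TPM in HKO, all inside the FLOX values of 167.2, 161.3, 152.3 and 142.9 TPM.

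*Acadm* (ENSMUSG00000062908), the medium-chain enzyme and the most abundant of the 10, had 235.3, 242.1, 267.3 and 282.3 TPM in HKO, against 312.3, 271.3, 232.2 and 232.5 TPM in FLOX. Its FLOX libraries were the more spread, with a coefficient of variation of 14.6% against 8.53% in HKO. *Acads* (ENSMUSG00000029545), the short-chain enzyme, had 146.1, 161.2, 162.0 and 163.3 TPM in HKO, against 164.4, 163.2, 151.6 and 157.3 TPM in FLOX. Apart from HKO 1 all of its libraries lay within 151.6 and 164.4 TPM. The log2 differences of the dehydrogenases were 0.03 for *Acadvl*, -0.0097 for *Acadl*, -0.02 for *Acadm* and -0.0096 for *Acads*. The 95% intervals were -0.14 to 0.20 for *Acadvl*, -0.17 to 0.15 for *Acadl*, -0.26 to 0.22 for *Acadm* and -0.17 to 0.15 for *Acads*.

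*Hadha* and *Hadhb* encode the alpha and beta subunits of the mitochondrial trifunctional protein, which carries out the later steps on long chains. *Hadha* (ENSMUSG00000025745) had 110.0, 138.5, 137.6 and 158.4 TPM in HKO, against 154.8, 141.0, 118.0 and 116.5 TPM in FLOX. HKO held both the lowest and the highest library of the 8. *Hadhb* (ENSMUSG00000059447) had 150.9, 184.7, 188.7 and 196.5 TPM in HKO, against 224.6, 180.7, 181.4 and 213.1 TPM in FLOX, with FLOX 1 and FLOX 4 above every HKO library.

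The log2 difference was 0.04 (95% interval -0.25 to 0.32) for *Hadha* and -0.15 (-0.39 to 0.09) for *Hadhb*, and neither passed (adjusted p = 0.987 and 0.823 in limma). For *Hadhb* it ranged from -0.20 to -0.067 with a library left out, being -0.067 without HKO 1 and -0.092 without FLOX 1, and it was -0.083 with library weights. The ratio of *Hadha* to *Hadhb* was 0.729, 0.750, 0.729 and 0.806 in HKO, against 0.689, 0.781, 0.651 and 0.547 in FLOX. It was most unequal in FLOX 4, and the difference of 0.087 between the group means was 0.047 without that library. The genes share the promoter region printed above, and their profiles over the 8 libraries were compared. By the root mean square distance between centred log2 profiles, *Hadhb* ranked 2808 among 8472 other genes of at least 5 TPM when ordered from *Hadha*, while *Acadm* ranked 261 and *Hadh* 366. Ordered from *Hadhb*, *Hadha* ranked 887 and *Hadh* 854, while *Slc25a20* ranked 82.

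*Hadh* (ENSMUSG00000027984), the dehydrogenase of the later step for shorter chains, had 218.2, 234.0, 259.0 and 258.1 TPM in HKO, against 260.5, 265.4, 223.2 and 216.4 TPM in FLOX. The groups covered almost the same range. Its log2 difference was 0.0079 (95% interval -0.20 to 0.22).

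**Figure D3:**
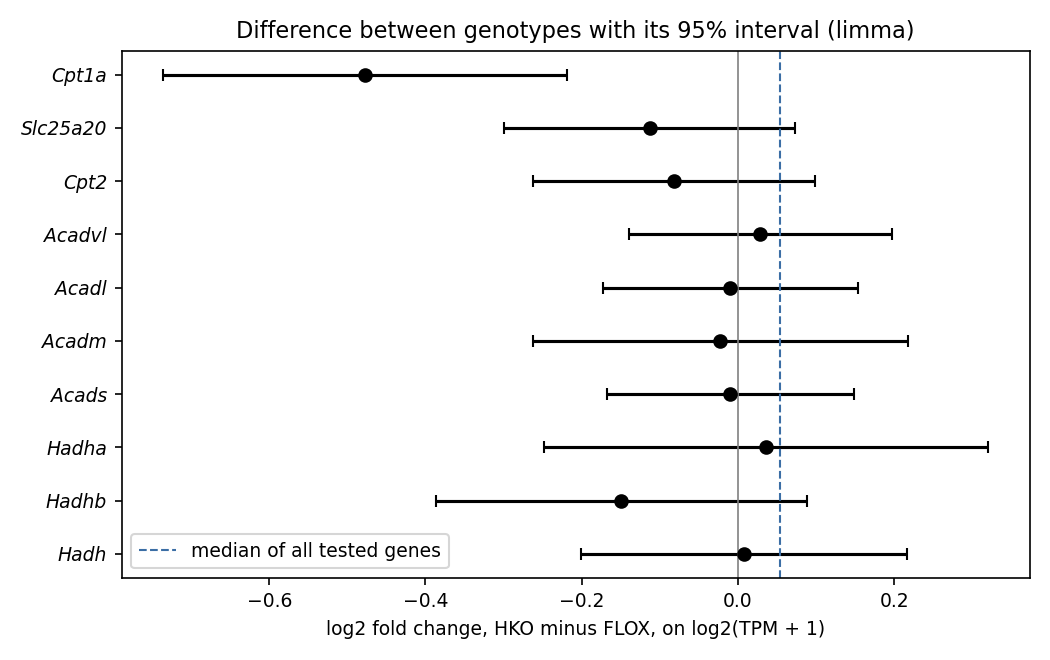
Log2 difference, HKO minus FLOX, on the log2(TPM + 1) scale for each gene (points) with its 95% interval from limma (bars). The grey line is 0 and the dashed line the median of all tested genes, 0.05. The interval of *Cpt1a*, -0.74 to -0.22, lies below 0, and those of the other 9 genes span it.

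Set side by side, 7 of the 10 log2 differences were below 0 and 3 above, where 35.4% of all tested genes were below 0. Those above 0 were *Acadvl*, *Hadha* and *Hadh*. Under median-of-ratios scaling and under quantile normalization all 10 lay below 0, as did 6361 and 6299 of all 12710 tested genes. The median over the 10 was -0.02, against 0.05 over all tested genes, and each of the 10 lay below the median of all tested genes. Against the median of the same setting, 8 did so with library weights and 8 without the filter. Without HKO 1, FLOX 1 or FLOX 4, 9 did so. The median over the 10 was 0.0078 without HKO 1, 0.015 without FLOX 1 and 0.00036 without FLOX 2. For the 9 genes other than *Cpt1a*, the lowest unadjusted p in limma was 0.193 and every 95% interval lay within 0.40 of 0 on the log2 scale. A p above the threshold does not show equal levels, and these intervals give the size of change that remains possible. Whole liver RNA was sequenced, so fewer hepatocytes and less RNA per hepatocyte cannot be told apart.

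The summed TPM of the 10 genes was 1466, 1614, 1669 and 1720 in HKO 1 to 4, against 1878, 1738, 1569 and 1593 in FLOX 1 to 4. HKO averaged 1617 ± 110 TPM and FLOX 1695 ± 143 TPM (SD, n = 4 each), and the groups overlapped. The difference of -77.2 TPM was -16.0 TPM without FLOX 1, -26.9 TPM without HKO 1 and -119.1 TPM without FLOX 3. It was -151.8 TPM under median-of-ratios scaling and -150.6 TPM under quantile normalization. Without *Cpt1a* the sums were 1498 ± 101 TPM in HKO and 1528 ± 122 TPM in FLOX, or 98.1% of the FLOX mean. Single libraries carried much of the spread among the genes. FLOX 1 was the highest library for 7 of the 10 genes, and HKO 1 the lowest for 5. FLOX 1 is the library with the muscle transcripts, and their part in these values was not tested. Averaged over the 10 genes, HKO 1 lay -0.17 from the mean of the 8 libraries on the log2 scale and FLOX 1 lay 0.19 above it.

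**Figure D4:**
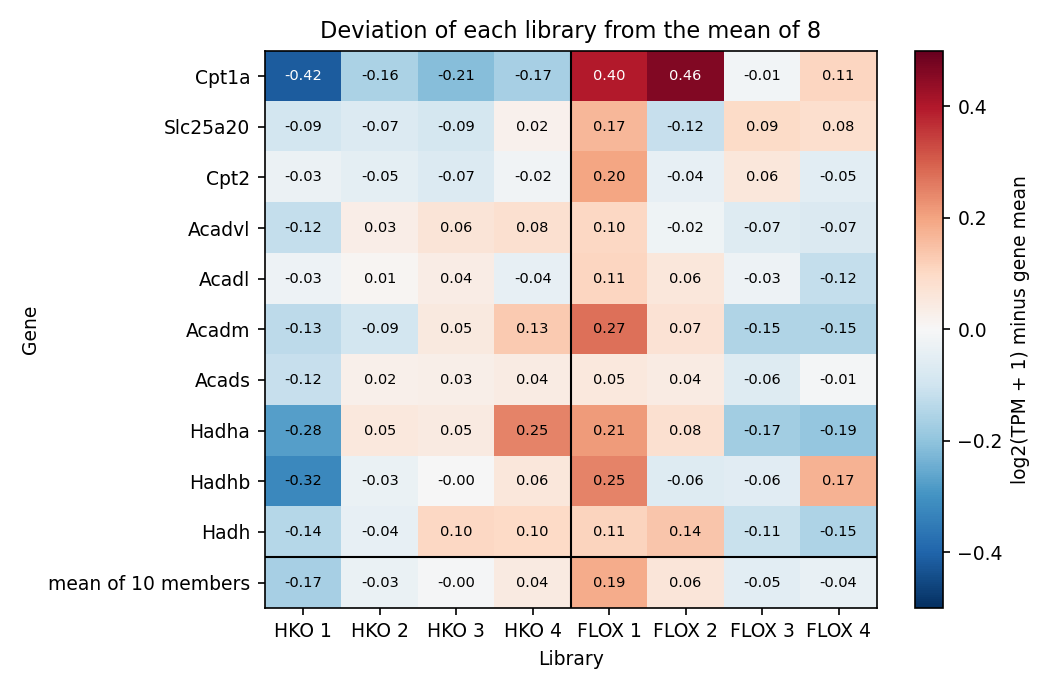
Deviation of each library (columns, HKO left and FLOX right) from the mean of all 8 on the log2(TPM + 1) scale, for each gene and for the mean of the 10 (bottom row). *Cpt1a* runs from -0.42 in HKO 1 to 0.46 in FLOX 2, and the mean of the 10 from -0.17 in HKO 1 to 0.19 in FLOX 1.

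*Cpt1a* was the gene farthest from the shared profile, which is not a separate result, since the profiles keep the difference between the genotypes. Its root mean square distance from the mean profile of the 10 was 0.222 on the log2 scale, against 0.0574 (*Acads*) to 0.113 (*Hadha*) for the others. Pairs that lay close were *Acads* with *Acadvl* (0.0405) and *Slc25a20* with *Cpt2* (0.0635). Outside the 10, the nearest of 8463 genes to the mean profile were *Proz*, *Slc25a10*, a gene with only a clone name, *Decr1*, *Ak3* and *Got2*, at distances of 0.0309 to 0.0407 over the 8 libraries. *Decr1* encodes a reductase of unsaturated fatty acid oxidation in mitochondria, with 63.8 ± 4.05 TPM in HKO and 65.1 ± 4.995 TPM in FLOX (SD, n = 4 each). *Slc25a10*, *Ak3* and *Got2* encode a dicarboxylate carrier, an adenylate kinase and an aminotransferase of mitochondria, and *Proz* encodes a plasma protein. Nearest to *Cpt1a* itself, among genes with a full name and chosen after the values were seen, were *Fitm2*, *Pex11a*, *Slc38a3* and *Pank1*, at distances of 0.0598 to 0.104. None of these 4 passed in limma (adjusted p of 0.177 to 0.297).

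The remaining genes of the pathway are described by counts over whole lists. Of 18 genes listed here as other mitochondrial oxidation enzymes, 0 passed the adjusted threshold in limma. By direction 9 were higher and 9 lower in HKO, and the median log2 difference was 0.0030. Where in the cell each product lies was not measured, so a gene of this list, *Eci2* included, need not act in mitochondria alone. Under the 3 other scalings 7 to 8 were higher and 10 to 11 lower, with medians of -0.058 to -0.021. *Eci2*, an isomerase for unsaturated chains, had 122.2, 128.6, 134.4 and 116.8 TPM in HKO, against 169.7, 158.7, 142.7 and 166.4 TPM in FLOX. All HKO values lay below all FLOX values, with a log2 difference of -0.34 ± 0.08 (SE) and an adjusted p of 0.209 in limma. In *Hsd17b10*, named after its values were seen, the groups also did not overlap, at 132.7 ± 8.42 TPM in HKO and 145.7 ± 7.63 TPM in FLOX (SD, n = 4 each). The log2 difference of *Hsd17b10* was -0.13 ± 0.08 (SE), with an adjusted p of 0.742 in limma. Of the 18 genes, 2 were lower without overlap and 0 higher, beside 1.46% and 3.29% of all tested genes. *Acad9*, *Acot13* and *Acad12* followed *Eci2* by p, with log2 differences of 0.23, 0.22 and -0.22. *Etfdh*, which passes electrons from the dehydrogenases to ubiquinone, had 138.3 ± 22.6 TPM in HKO and 128.3 ± 21.6 TPM in FLOX (SD, n = 4 each).

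Of 9 tested genes of fatty acid activation and carnitine supply, 0 passed in limma. At an unadjusted p under 0.05 there were 1 higher and 2 lower, beside 5.57% and 2.45% of all tested genes. *Acsl3*, an acyl-CoA synthetase, had 9.5, 10.75, 12.61 and 16.67 TPM in HKO, above the FLOX values of 6.64, 9.13, 6.99 and 5.21 TPM (log2 difference 0.74 ± 0.19 SE, adjusted p = 0.246 in limma). The carriers *Slc25a29* and *Slc22a5*, the plasma-membrane carnitine transporter, had log2 differences of -0.55 and -0.31, and *Acsl4*, the fourth by p, of -0.24. *Slc25a29* was scarce, with 0.64 to 1.27 TPM in HKO and 1.63 to 2.40 TPM in FLOX. Its log2 difference was -0.90 with a pseudocount of 0.1 and -0.21 with 5. *Acsl1*, the main liver synthetase, had 144.2 ± 9.64 TPM in HKO and 167.5 ± 39.3 TPM in FLOX (SD, n = 4 each). Of 9 genes that set or sense malonyl-CoA and energy charge, 0 passed in limma and 0 had an unadjusted p under 0.05. Their median log2 difference was 0.12, and the 4 of smallest p were *Prkab1* (0.16), *Prkag1* (0.12), *Acaca* (0.21) and *Prkab2* (0.16). *Acaca*, which makes malonyl-CoA, had 9.71 ± 2.18 TPM in HKO and 8.21 ± 1.53 TPM in FLOX (SD, n = 4 each).

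Among 12 tested transcription regulators 0 passed in limma and 1 had an unadjusted p under 0.05, beside 8.02% of all tested genes in either direction. That gene was *Lpin1*, a PPAR alpha coactivator and phosphatidate phosphatase, with 12.05, 25.52, 34.24 and 14.75 TPM in HKO, against 39.18, 71.43, 29.36 and 77.23 TPM in FLOX. The groups overlapped through HKO 3 and FLOX 3 (log2 difference -1.29 ± 0.36 SE, adjusted p = 0.284 in limma). *Ppara*, the receptor itself, had 29.6 ± 5.07 TPM in HKO and 34.7 ± 5.60 TPM in FLOX (SD, n = 4 each), with a log2 difference of -0.22. *Ppargc1a*, a coactivator of mitochondrial genes, had 1.88 ± 0.37 TPM in HKO and 2.51 ± 1.06 TPM in FLOX. *Hnf4a* and *Nrip1* had log2 differences of -0.22 and 0.38.

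Peroxisomal oxidation, which shortens very long chains, was examined next. Of 17 genes 0 passed in limma. HKO was below FLOX in 14, beside 35.4% of all tested genes (15 to 16 under the other scalings, beside 5213 to 6361 of 12710). At an unadjusted p under 0.05 there were 3, all lower and all without overlap, where 2.45% of all tested genes were lower at that p and 1.46% were lower without overlap. Among them were *Pex11a*, a peroxisome division gene (41.9 ± 2.18 TPM in HKO and 56.3 ± 4.66 TPM in FLOX, SD, n = 4 each), and *Decr2*, a peroxisomal reductase (105.2 ± 4.44 TPM in HKO and 127.4 ± 6.58 TPM in FLOX). *Acox3*, a peroxisomal oxidase, had a log2 difference of -0.17. The median of the peroxisomal list was -0.09, against -0.02 for the 10 mitochondrial genes.

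Downstream of the pathway, 0 of 6 ketone body genes passed in limma and 0 had an unadjusted p under 0.05. The median log2 difference of that list was -0.013, with 2 genes higher and 4 lower in HKO, beside 35.4% of all tested genes lower. The 2 higher were the monocarboxylate carriers *Slc16a7* and *Slc16a1*, with log2 differences of 0.15 and 0.14. Of 25 tested genes of respiration and mitochondrial mass, 0 passed in limma and 0 had an unadjusted p under 0.05. Their median was 0.04 and 21 were higher in HKO, beside a median of 0.05 and 8211 higher of all 12710 tested genes. The direction of the 25 turned with the scaling. Under median-of-ratios scaling or quantile normalization 9 of 25 were higher, beside 6349 and 6411 of all tested genes. *Ndufa9*, *Uqcrc2* and *Sdha*, among those of smallest p, had log2 differences of 0.15, 0.11 and 0.13. *Ndufa9* was the only one of the 25 whose groups did not overlap, beside 3.29% of all tested genes higher without overlap and 1.46% lower. It had 101.8 ± 4.48 TPM in HKO and 91.7 ± 2.82 TPM in FLOX (SD, n = 4 each). Its log2 difference was 0.085 under median-of-ratios scaling and 0.0755 under quantile normalization.

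**Figure D5:**
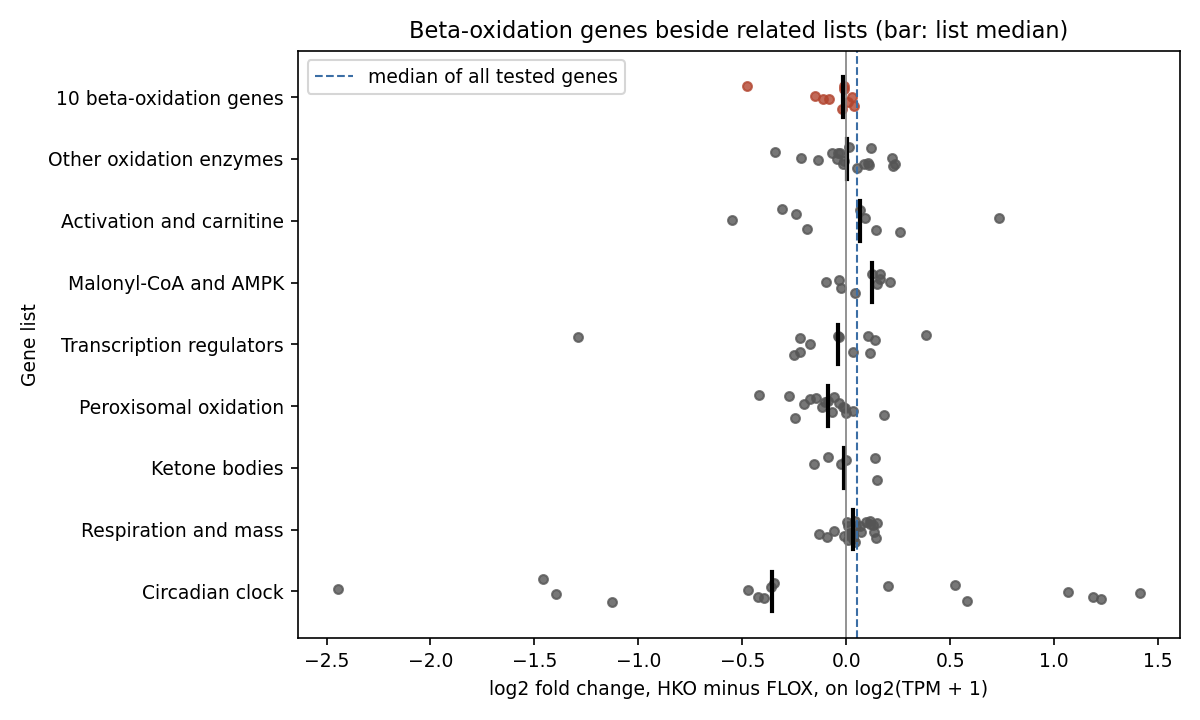
Log2 difference, HKO minus FLOX, of each tested gene (points, spread vertically for sight) in the 10 beta-oxidation genes (red) and in 8 related lists (grey), with list medians as black bars. The medians are -0.02 for the 10 genes, -0.09 for peroxisomal oxidation, 0.04 for respiration (-0.028 under median-of-ratios scaling) and -0.36 for the clock list, whose members lie on both sides, and the dashed line marks the median of all tested genes.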

How the data were processed

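The authors deposited 1 table of TPM values for 55416 mouse gene identifiers in 8 libraries, given to 2 decimals. The labels' protocols name a kit for total RNA that keeps strand. RSEM 1.3.3 and GRCh38.p13, a human build, appear in the submitters' processing notes although the identifiers are mouse ones. For aligner, annotation and strand option, these sources give nothing, so the transcript lengths behind the TPM are unknown. A table of mouse gene names matched 52083 identifiers.

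Values were transformed to log2(TPM + 1), which understates the change of low genes. The 12710 genes that reached 1 TPM in 4 or more libraries were fitted with limma 3.58.1 in R 4.3.3 (lmFit, then eBayes with trend, no covariates), HKO minus FLOX, with Benjamini-Hochberg adjustment over all of them. The procedure was tested on simulated data. Sums, shares and ratios carry no test. Named were the 10 genes, up to 4 genes of smallest p per list, 8 further genes such as *Ppara* and *Etfdh*, and the 6 genes nearest to the mean profile. Some genes this rule names are not reported here. Members and lists were chosen with earlier results of these data known. Alternatives changed the pseudocount (0.1 or 5), the filter (none, or a mean of 5 TPM), the scaling (3 ways), the variance model (robust, library weights, replicate block) or left out a library.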

Additional observations from a re-analysis of the deposited data

Results flagged for a closer look

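Of 104 groups of 4 libraries checked, 6 held a library far from the other 3 of its group, and chance gives about 1 in 20. *Acads* was 146.1 TPM in HKO 1, against 161.2 to 163.3 TPM in the other HKO libraries. The *Cpt1a* to *Cpt2* ratio was 1.43 in HKO 1, against 1.69 to 1.74 in the others. *Ppargc1a* was 4.09 TPM in FLOX 2, against 1.93 to 2.06 TPM in the other FLOX libraries. The clock genes *Arntl* and *Nfil3* were 19.6 and 37.0 TPM in HKO 4, against 11.95 to 13.10 and 22.97 to 23.98 TPM in the other HKO libraries. *Ciart*, a clock repressor, was 0.56 TPM in HKO 2, against 0.37 to 0.40 TPM in the others.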

How the results depend on the processing

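None of the 10 genes passed in any of the 18 other settings in limma, and 1, *Cpt1a*, had an unadjusted p under 0.05 in each. Its log2 difference stayed between -0.56 and -0.40. Under median-of-ratios scaling and quantile normalization, *Acadvl* turned to -0.035 and -0.033, *Hadha* to -0.027 and -0.033, and *Hadh* to -0.055 and -0.068. *Hadh* was -0.017 when libraries were rescaled leaving out the mitochondrial genome and the 20 top genes. *Acads* turned to 0.013 with library weights. With each library left out in turn, *Acadl* ranged from -0.051 to 0.024, *Acadm* from -0.077 to 0.065, *Acads* from -0.033 to 0.028, *Hadha* from -0.040 to 0.13 and *Hadh* from -0.042 to 0.057. The cause of these turns, all near 0, was not tested. The other 36 named genes kept their sign. All genes past the threshold numbered 13, and were 8 and 6 with pseudocounts of 0.1 and 5, 20 after that rescaling, 20 with library weights, 0 without the filter (1539 at an unadjusted p under 0.05), and 0 to 16 with a library left out (0 without HKO 3 or FLOX 1, 2 without HKO 2, 3 without FLOX 4 and 5 without HKO 1). *Smpd3* had an adjusted p of 0.167 without the filter (log2 difference -1.89), and with a library left out -2.06 to -1.76 with adjusted p from 0.0358 to 0.0874, above the threshold without HKO 1, HKO 3, HKO 4, FLOX 1 or FLOX 2. With the replicate block 0 genes passed in limma (743 at an unadjusted p under 0.05), and *Smpd3* did not (-1.89, adjusted p = 0.0818). Same-numbered libraries did not deviate together (r from -0.195 to 0.0308), and 0 of the HKO and 0 of the FLOX libraries lay closest to their own number. A pairing that leaves little mark on expression would not show in this check, so whether the numbers pair the samples is not known. Depth is unknown and 4 libraries a group limit the precision.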
